A study of Mus musculus with 6 samples.

Results

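The genes of the phagocyte NADPH oxidase were followed in mouse cortex after stroke, with 7 members taken by symbol from a count table of 24421 genes: Cybb, Cyba, Ncf1, Ncf4, Rac2, Hvcn1 and Nox4. All 7 had a row and enough counts to be tested. The samples were cortex of C57BL/6 mice that had undergone MCAO, the surgical blocking of the middle cerebral artery that models ischaemic stroke, and both groups share strain and surgery. The NeuroD1_MCAO group (3 libraries) received NeuroD1, a proneural transcription factor, and the GFP_MCAO group (3 libraries) received green fluorescent protein. The sources used here do not name the vector, the cells it reaches, the time after stroke, or the age and sex of the mice. Nothing in the labels says that the libraries came from separate animals, so p-values reflect only how far these samples spread, and that spread may be technical.

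The phagocyte NADPH oxidase is the enzyme behind the respiratory burst, in which phagocytes turn oxygen into superoxide to kill ingested microbes. Its membrane core is a heterodimer of gp91phox, the catalytic subunit that Cybb encodes, and p22phox, encoded by Cyba. On activation cytosolic proteins such as p47phox (Ncf1) and p40phox (Ncf4) join the core together with the GTPase Rac2, and the proton channel Hv1 (Hvcn1) balances the charge that the enzyme moves. Nox4 encodes a relative of gp91phox that also binds p22phox but is active without the cytosolic subunits, and it is known from vessel wall, kidney and fibroblasts rather than from phagocytes. In brain, the phagocyte enzyme is found in microglia and in macrophages and neutrophils that enter injured tissue.

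Libraries held 10843273 to 13440244 counts with NeuroD1 and 7753101 to 9698795 with GFP. Levels are CPM, counts per 1000000 of a library size scaled by the TMM method, and 1 count was worth 0.0753 to 0.0968 CPM with NeuroD1 and 0.101 to 0.134 CPM with GFP. The delivered gene Neurod1 had 48.5, 14.6 and 38.4 CPM in NeuroD1 replicates 1, 2 and 3, against 6.48, 3.87 and 5.43 CPM in the GFP replicates, a 6.39-fold higher level without overlap (edgeR adjusted p = 0.136). NeuroD1 replicate 2 had the least Neurod1 of its group and stood apart on several cell type lists as well, with the most fibroblast markers and the fewest neuron and astrocyte markers of the 6 libraries.

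Cybb stood 3.95-fold higher with NeuroD1, whereas its partner genes Cyba, Ncf1, Ncf4 and Rac2 were 1.37-fold to 1.56-fold higher with groups that overlapped. In GRCm38 coordinates the protein-coding gene Cybb lies at chrX:9435252-9487771 on the minus strand. It had 164, 244 and 101 CPM in NeuroD1 replicates 1, 2 and 3, against 29, 50.8 and 49.3 CPM in GFP replicates 1, 2 and 3. Every NeuroD1 library lay above every GFP library, and the lowest NeuroD1 value belonged to replicate 3. In bulk RNA, fewer cells of a type and less RNA per cell cannot be told apart, nor can more of either. The mean was 169.7 ± 71.7 CPM with NeuroD1 and 43.0 ± 12.2 CPM with GFP (SD, n = 3 each). The log2 fold change was 1.98 (SE 0.36), with an unadjusted p of 0.000528 in edgeR's quasi-likelihood test and a Benjamini-Hochberg adjusted p of 0.136 over the 14852 genes tested, which misses the threshold of 0.05. Cybb ranked 32 by p among these genes and 108 by fold change. With DESeq2 the log2 fold change was 1.99 and the adjusted p 0.000122, while limma-voom gave an adjusted p of 0.149. With any 1 library left out the log2 fold change was between 1.63 (without NeuroD1 replicate 2) and 2.25 (without NeuroD1 replicate 3).

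Of the 7 members, 0 passed edgeR's test after adjustment, as did 0% of all genes tested, and limma-voom called 0 as well. At an unadjusted p under 0.05 Cybb alone was higher, 1 of 7 members, against 12.5% of all tested genes higher by that rule. Cybb was also the 1 member whose groups did not overlap, against 14.2% of all genes with every NeuroD1 library above every GFP library. These counts of members are near the background. Without NeuroD1 replicate 3 they were 4 members at an unadjusted p under 0.05, against 15.3% of all genes in that fit, and 5 without overlap, and members without overlap were 3 without GFP replicate 2 and 2 without GFP replicate 3. With fewer libraries, overlap is less likely for any gene. The share of all genes without overlap was not counted with a library left out, so those counts have no background to be read against. With all libraries no member, 0 of 7, had every NeuroD1 library below every GFP library, against 15.3% of all genes. DESeq2 called 1 member, Cybb, while 5.04% of the genes that it gave an adjusted p were called higher. All 7 members had a fold change above 0, as did 51.7% of all genes, and the median log2 fold change was 0.57 over the members and 0.024 over all genes tested. Without NeuroD1 replicate 2 the median over the members was 0.25, with 6 of 7 above 0.

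**Figure D1:**
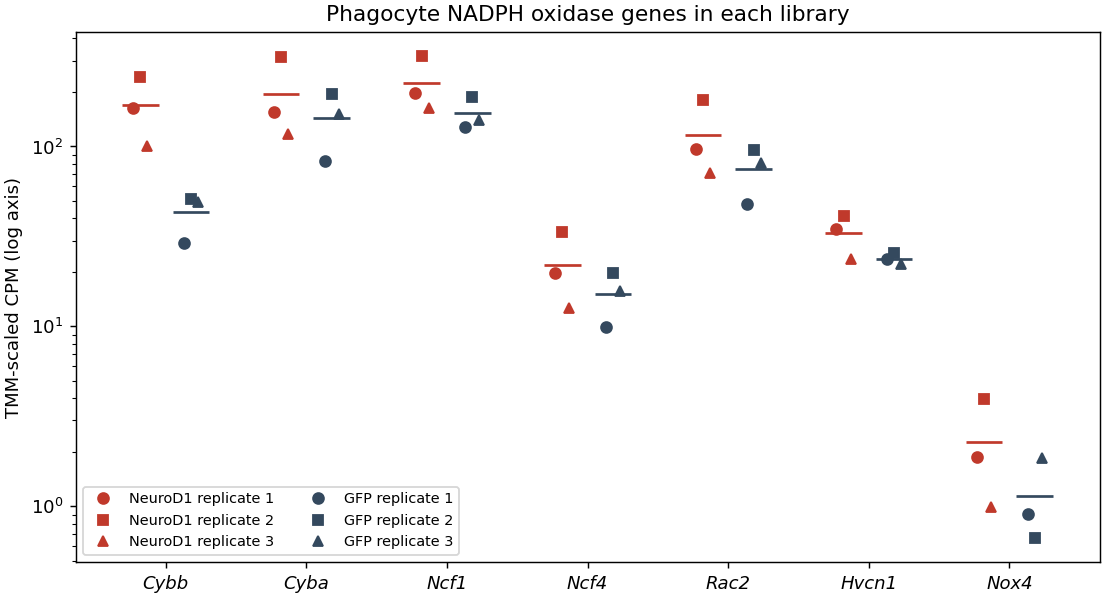
Level of each oxidase gene in each library, in TMM-scaled CPM on a log axis, with NeuroD1 libraries left of GFP libraries, 1 symbol for each replicate number and a bar at the group mean. The NeuroD1 points of Cybb, from 101 to 244 CPM, lie above its GFP points, from 29 to 50.8 CPM, while the groups of every other gene overlap.

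Cyba (chr8:122424776-122432930, minus strand) encodes p22phox, the stabilising partner of gp91phox in the membrane. It had 155, 313 and 118 CPM in NeuroD1 replicates 1, 2 and 3, against 83.0, 195 and 152 CPM in GFP replicates 1, 2 and 3. NeuroD1 replicate 3 lay below GFP replicates 2 and 3, so the groups overlapped, with a log2 fold change of 0.45 (SE 0.43, edgeR adjusted p = 0.521). Without NeuroD1 replicate 2 the value was -0.06, and without GFP replicate 1 it was 0.14. Per kilobase of annotated exon Cyba was the most abundant member in both groups, at 188 ± 99.8 CPM per kilobase with NeuroD1 and 138 ± 54.2 with GFP (SD, n = 3 each).

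The promoters of Cybb and Cyba are shown because these genes encode both chains of the membrane core and had different fold changes. Each runs from 250 bases before to 50 bases after the start that RefSeq gives the gene, on its own strand (GRCm38.p6, minus strand for both), at chrX:9469275-9469574 for Cybb and chr8:122432891-122433190 for Cyba. The RefSeq start of Cybb, at base 9469324, lies 18447 bases downstream of the upstream end of the GENCODE gene span given above, so the window lies inside that span. Capitals mark matches on either strand to GAGGAA, the core of sites bound by ETS factors such as PU.1, to the CCAAT box CCAAT and to the GC box GGGCGG.
Cybb: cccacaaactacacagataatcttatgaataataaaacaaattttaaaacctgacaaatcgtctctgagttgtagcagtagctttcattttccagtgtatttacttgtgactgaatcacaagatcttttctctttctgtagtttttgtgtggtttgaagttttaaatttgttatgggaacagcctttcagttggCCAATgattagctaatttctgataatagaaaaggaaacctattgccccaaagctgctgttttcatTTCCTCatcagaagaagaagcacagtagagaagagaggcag
Cyba: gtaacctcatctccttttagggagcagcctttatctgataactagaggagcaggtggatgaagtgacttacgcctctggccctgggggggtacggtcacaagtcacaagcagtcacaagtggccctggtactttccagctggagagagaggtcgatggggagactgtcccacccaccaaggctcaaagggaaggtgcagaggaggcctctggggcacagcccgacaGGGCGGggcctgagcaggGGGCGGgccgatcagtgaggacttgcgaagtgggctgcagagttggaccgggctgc
The Cybb window held 1 GAGGAA match, on the opposite strand, and 1 CCAAT box, and the Cyba window held 2 GC boxes, with no overlap among matches. Of 27025 gene promoters of this length, 28.3% held GAGGAA, 37.9% CCAAT and 35.9% GGGCGG on either strand. GC content was 35.3% in the Cybb window and 60.7% in the Cyba window, against a median of 52.7% over all promoters. Promoters of Ncf1 and Nox4 were also matched, 4 members in all, and each of them held 1 GC box and none of the other motifs. Those of Ncf4, Rac2 and Hvcn1 are not shown. A motif match describes the letters of the window and is not evidence of a bound site.

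The cytosolic subunits had smaller fold changes than Cybb, and their groups overlapped. Ncf1 (chr5:134220053-134229625, minus strand), the organiser subunit p47phox, had 198, 317 and 163 CPM in NeuroD1 replicates 1, 2 and 3, against 129, 188 and 141 CPM in GFP replicates 1, 2 and 3. NeuroD1 replicates 1 and 2 lay above all GFP libraries and replicate 3 below GFP replicate 2, with a log2 fold change of 0.57 (SE 0.30, edgeR adjusted p = 0.272). Ncf1 shares 408 exon bases with Gtf2ird2 on the opposite strand, and since the strand setting of the counting is not given, reads there cannot be assigned to a strand. Gtf2ird2 was lower without overlap, at 10.5 ± 2.25 CPM with NeuroD1 and 19.9 ± 4.24 CPM with GFP (SD, n = 3 each).

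Ncf4 (chr15:78244801-78262580, plus strand) encodes p40phox, the subunit that binds phosphoinositides on the phagosome. It had 19.7, 33.4 and 12.6 CPM in NeuroD1 replicates 1, 2 and 3, against 9.92, 19.9 and 15.8 CPM in GFP replicates 1, 2 and 3. The groups overlapped, with a log2 fold change of 0.53 (SE 0.39, edgeR adjusted p = 0.42). NeuroD1 replicate 3 lay below GFP replicates 2 and 3.

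Rac2 (chr15:78559167-78572783, minus strand) encodes the GTPase of blood cells that activates the assembled enzyme. It had 96.5, 180.5 and 71.4 CPM in NeuroD1 replicates 1, 2 and 3, against 48.0, 95.2 and 80.6 CPM in GFP replicates 1, 2 and 3. NeuroD1 replicate 3 lay within the GFP range, and the log2 fold change was 0.64 (SE 0.38, edgeR adjusted p = 0.326). Rac1, the related GTPase of most cell types, had a log2 fold change of 0.09 (SE 0.23, edgeR adjusted p = 0.838), at 442 ± 77.2 CPM with NeuroD1 and 416 ± 4.24 CPM with GFP (SD, n = 3 each).

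Hvcn1 (chr5:122206804-122242297, plus strand) encodes the voltage-gated proton channel, which B cells express as well as phagocytes. It had 34.6, 41.3 and 23.8 CPM in NeuroD1 replicates 1, 2 and 3, against 23.7, 25.6 and 22.1 CPM in GFP replicates 1, 2 and 3. NeuroD1 replicates 1 and 2 were above all GFP libraries and replicate 3 was within their range, with a log2 fold change of 0.48 (SE 0.24, edgeR adjusted p = 0.257). Hvcn1 shares 1574 of its 3563 exon bases with Tctn1 on the opposite strand, so part of its counts is uncertain. Tctn1 was at 13.9 ± 4.01 CPM with NeuroD1 and 23.3 ± 5.58 CPM with GFP (SD, n = 3 each), a lower level without overlap. B cell markers were scarce: 5 of the 7 list genes with a row had too few counts to test. Their summed level was 34.8 to 98.1 CPM with NeuroD1 and 27.0 to 37.5 CPM with GFP, most of it from Cd22.

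Nox4 (chr7:87246096-87398710, plus strand) was the least abundant member, close to the limit of what these libraries resolve. It had 25, 41 and 11 counts in NeuroD1 replicates 1, 2 and 3, against 9, 5 and 17 counts in GFP replicates 1, 2 and 3. In CPM these were 1.88, 3.97 and 0.987 with NeuroD1 and 0.911, 0.668 and 1.85 with GFP, so the groups overlapped. The log2 fold change was 0.97 (SE 0.62, edgeR adjusted p = 0.352). It was 0.33 without NeuroD1 replicate 2, 1.5 without GFP replicate 3 and 0.51 with length and GC offsets. Among cell types known to express Nox4, fibroblast markers summed to 1429.7 to 5942 CPM with NeuroD1 and 757 to 1546 CPM with GFP, with 8 of 8 higher at an unadjusted p under 0.05. Among these, Pdgfra is not specific to fibroblasts in brain. Endothelial markers summed to 148 to 271 CPM with NeuroD1 and 329 to 541 CPM with GFP, with 5 of 8 lower. The part of either cell type in the Nox4 counts was not tested.

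The members shared a pattern across libraries. NeuroD1 replicate 2 was the highest of all 6 libraries for 7 of 7 members, and NeuroD1 replicate 3 the lowest of its group for 7 of 7. This was not particular to the members. The summed pan-phagocyte, microglia, monocyte and macrophage, neutrophil, B cell and fibroblast markers had the same pattern. Endothelial, pericyte and smooth muscle, neuron and astrocyte markers did not, and the share of all genes with it was not counted. T and NK cell sums were nearly level, at 33.4, 33.9 and 33.2 CPM in NeuroD1 replicates 1, 2 and 3. Of these markers Cd4 and Ncr1 were highest of the NeuroD1 group in replicate 2. Cd3e, Cd3g, Cd3d, Cd8a, Cd2, Lck and Nkg7 were lowest of that group in replicate 2. Among GFP libraries, replicate 1 was lowest for 5 of the 7 members. Without NeuroD1 replicate 2 the log2 fold change was 1.63 for Cybb, 0.30 for Hvcn1, 0.25 for Ncf1, 0.18 for Rac2, 0.10 for Ncf4 and -0.06 for Cyba. Without NeuroD1 replicate 3 it was 2.25 for Cybb and 0.68 to 0.90 for those other 5, and Rac2, Hvcn1 and Ncf1 then passed an unadjusted p of 0.05 together with Cybb.

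**Figure D2:**
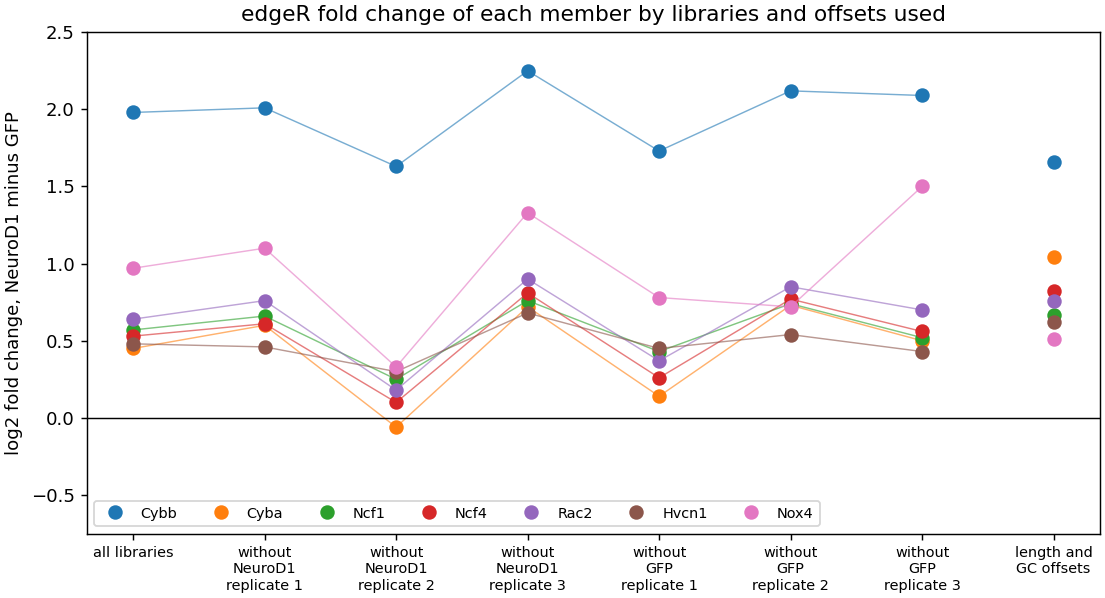
Fold change (edgeR, log2, NeuroD1 minus GFP) of each of the 7 members with all libraries, with each library left out in turn, and after correction for exon length and GC content; thin lines only guide the eye. Cybb stays between 1.63 and 2.25 when a library is left out, while Cyba ranges from -0.06 to 0.73.

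Levels of different members were compared only per kilobase of exon, with the caveat that the length counts every exon annotated for the gene. With NeuroD1 the order of mean CPM per kilobase was Cyba (188), Ncf1 (61.8), Rac2 (37.4), Cybb (29.2), Ncf4 (10.8), Hvcn1 (9.33) and Nox4 (0.269). With GFP it was Cyba (138), Ncf1 (41.7), Rac2 (24.0), Ncf4 (7.52), Cybb (7.41), Hvcn1 (6.68) and Nox4 (0.135). Cybb therefore came next to Rac2 in the order with NeuroD1 (SD 12.3 for Cybb and 18.4 for Rac2). With GFP it came next to Ncf4 and Hvcn1 (SD 2.10, 2.48 and 0.504 for Cybb, Ncf4 and Hvcn1). These SDs are spreads over libraries that the genes share, so they do not show whether 1 gene lay above another. Differences between members per kilobase were not tested. Cyba and Nox4 held the ends of the order in both groups.

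Within each library the ratio of Cybb to its partners separated the groups. The log2 ratio of Cybb to Cyba CPM was 0.08, -0.36 and -0.22 in NeuroD1 replicates 1, 2 and 3, against -1.52, -1.94 and -1.62 in GFP replicates 1, 2 and 3. That is a difference of 1.52, or 2.87-fold, with groups that do not overlap. The ratio of Cybb to Ncf4 was 3.06, 2.87 and 3.0 with NeuroD1, against 1.54, 1.35 and 1.64 with GFP, a difference of 1.47. The differences were 1.41 against Ncf1, 1.35 against Rac2 and 1.49 against Hvcn1, each without overlap, and 1.08 against Nox4 with overlap. Each ratio without overlap had a two-sided exact permutation p of 0.1, the smallest that 3 against 3 allows, and of 0.12 after adjustment over the 6 ratios, which were chosen after the values were seen. Such a ratio shows unequal change within a library and not which gene changed. Offsets for exon length and GC content changed the gap between Cybb and Cyba, whose exons span 5.81 and 1.04 kilobases: the log2 fold changes became 1.66 and 1.04, a gap of 0.62 against 1.53 without offsets. With those offsets the other members lay between 0.51 and 0.82, and 4 of 7 members (Cybb, Cyba, Ncf1 and Hvcn1) were higher at an unadjusted p under 0.05, against 11.3% of all genes higher in that fit.

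The next comparison asks whether the oxidase genes moved with markers of the cells that carry the enzyme. Set against 8 pan-phagocyte markers (Ptprc, Laptm5, Tyrobp, Fcer1g, Spi1, Itgam, Csf1r and Aif1) in the same library, Cybb had a log2 ratio of -0.77, -0.73 and -1.09 in NeuroD1 replicates 1, 2 and 3, against -2.61, -2.48 and -2.23 in GFP replicates 1, 2 and 3. The difference was 1.58, with no overlap (two-sided exact permutation p = 0.1, the smallest possible, and 0.7 after adjustment over the 7 members). For Cyba, Ncf1, Ncf4, Rac2 and Hvcn1 the same difference was 0.05 to 0.23, with groups that overlapped. These ratios used no length or GC offsets. With offsets the log2 fold change of Cybb was 1.66 against 1.98 without, and the median of the pan-phagocyte list 0.68 against 0.33. Cybb and these markers thus lay closer together, and the ratios were not computed with offsets.

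The answer depended on which cells the markers stand for. Against 10 microglia markers, the Cybb difference was 1.79 with no overlap (exact permutation p = 0.1, and 0.6 after adjustment over the 7 members), and against 10 monocyte and macrophage markers, a comparison added after the values were seen, it was 0.29 with overlapping groups (exact permutation p = 0.2). Relative to those same markers Cyba, Ncf1, Ncf4, Rac2 and Hvcn1 had lower ratios with NeuroD1, by differences of -1.23 to -1.06 without overlap (exact permutation p = 0.1 each, and 0.14 after adjustment over the 7 members). These genes themselves had log2 fold changes of 0.45 to 0.64, and the marker list a median of 1.56. A lower ratio here therefore means a smaller rise than that of the markers. With length and GC offsets the list median was 1.22 and Cyba was at 1.04. Some markers were near 0, as Ly6c2 with 1 count and Plac8 with 3 counts in GFP replicate 1. The monocyte and macrophage markers themselves summed to 343, 588 and 210 CPM in NeuroD1 replicates 1, 2 and 3, against 79.0, 104 and 118 CPM in GFP replicates 1, 2 and 3, and 7 of 10 were higher at an unadjusted p under 0.05. Pan-phagocyte markers summed to 2553 to 4844 CPM with NeuroD1 and 2283 to 3343 CPM with GFP, and microglia markers to 3100.3 to 5079 CPM with NeuroD1 and 2766 to 3191 CPM with GFP, both with overlap. The part of infiltrating cells in the Cybb difference was not tested.

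**Figure D3:**
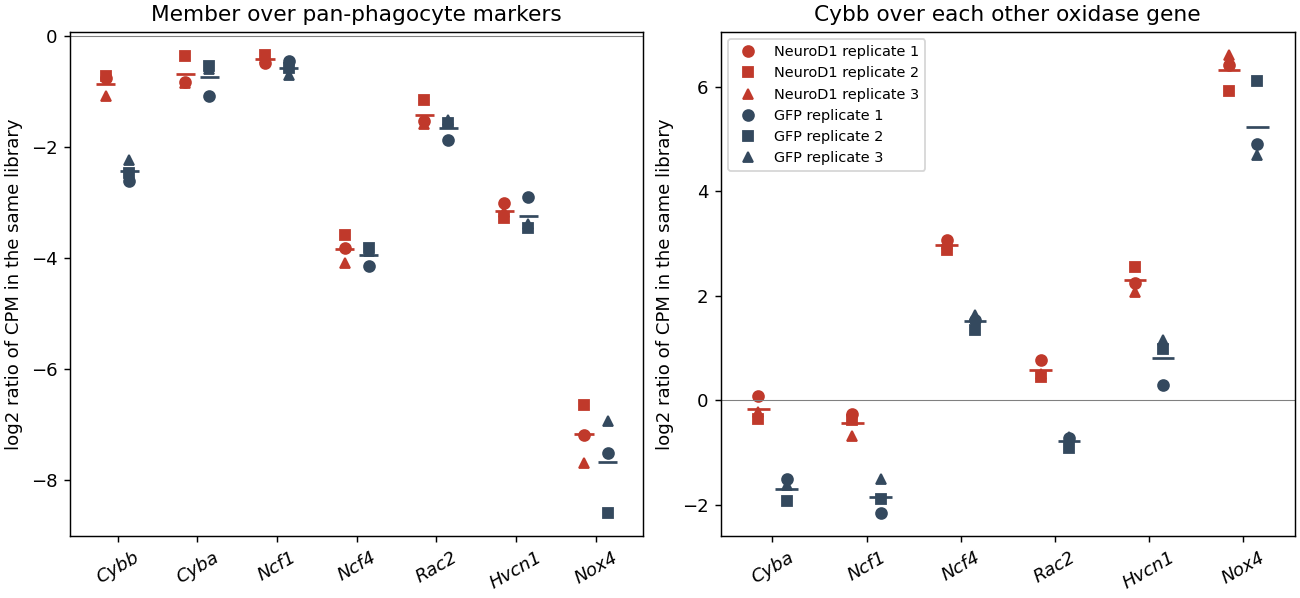
Log2 ratios of CPM within each library, NeuroD1 left of GFP with a bar at the group mean: on the left each oxidase gene over the geometric mean of 8 pan-phagocyte markers, on the right Cybb over each other oxidase gene. Cybb over pan-phagocyte markers is -1.09 to -0.73 with NeuroD1 and -2.61 to -2.23 with GFP, and Cybb over Cyba is -0.36 to 0.08 with NeuroD1 and -1.94 to -1.52 with GFP.

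Markers of neutrophils, which carry much of the body's phagocyte oxidase, were mostly at or near 0. Elane was listed at 0 in all 6 libraries, Camp and Ltf had 0 to 3 counts, and 7 of the 11 list genes with a row had too few counts to test. Of the 4 that could be tested, Mmp8, the neutrophil collagenase, was 5.76-fold higher, with 38.3, 94.1 and 17.6 CPM in NeuroD1 replicates 1, 2 and 3, against 4.05, 8.15 and 13.8 CPM in GFP replicates 1, 2 and 3 (unadjusted p = 0.00399, edgeR adjusted p = 0.136). Mmp9, a gelatinase, was 2.22-fold higher with overlapping groups (unadjusted p = 0.0357, edgeR adjusted p = 0.186). The alarmin gene S100a8 had 42, 145 and 16 counts with NeuroD1 and 13, 8 and 26 with GFP. The list summed to 98.4 to 233 CPM with NeuroD1 and 107 to 205 CPM with GFP, most of it from Csf3r, which microglia also express and which was 1.58-fold lower with overlapping groups (unadjusted p = 0.0607, edgeR adjusted p = 0.226). Of 9 T and NK cell markers, 5 had enough counts, and the list summed to 33.2 to 33.9 CPM with NeuroD1 and 6.28 to 19.7 CPM with GFP. A large part of these sums was Cd4, which some macrophages also express. It had 13.9, 25.4 and 12.3 CPM in NeuroD1 replicates 1, 2 and 3, against 4.35, 7.35 and 10.1 CPM in GFP replicates 1, 2 and 3. Markers of neurons, at 1937 to 5831 CPM with NeuroD1 and 2775 to 5184 CPM with GFP, and of astrocytes, at 5030 to 9346 CPM with NeuroD1 and 8182 to 13980.2 CPM with GFP, were present in all libraries, as in cortex tissue.

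Of 8 pan-phagocyte markers 2 were higher at an unadjusted p under 0.05, Ptprc, the pan-leukocyte phosphatase CD45 (2.22-fold), and Itgam, the integrin CD11b (1.64-fold), while Aif1 was 1.46-fold lower with overlapping groups. Of the microglia markers Fcrls was 1.56-fold higher with overlapping groups (unadjusted p = 0.0494, edgeR adjusted p = 0.207). Siglech was 1.96-fold lower without overlap (unadjusted p = 0.0256, edgeR adjusted p = 0.168). With a library left out, 0 to 2 microglia markers were higher and 0 to 1 lower at an unadjusted p under 0.05. The monocyte and macrophage markers Itga4, F13a1 and Ms4a7 were 2.94-fold, 7.07-fold and 2.8-fold higher without overlap (edgeR adjusted p = 0.136 each). Cd4, which some macrophages also express, was 2.37-fold higher and the T cell receptor chain Cd3g 3.63-fold higher, at 2.12 ± 0.503 CPM with NeuroD1 and 0.593 ± 0.521 CPM with GFP (SD, n = 3 each). Of the listed fibroblast markers Pdgfra (not specific to fibroblasts in brain), Lum and Lox were 2.23-fold, 4.05-fold and 5.65-fold higher. The endothelial markers Tek, Esam and Pecam1 were 2.75-fold, 2.54-fold and 2.07-fold lower. Pericyte and smooth muscle markers summed to 185 to 391 CPM with NeuroD1 and 288 to 442 CPM with GFP, with 5 of 8 lower, among them Higd1b (4.23-fold), Myh11 (3.62-fold) and Acta2 (2.59-fold). Without NeuroD1 replicate 1 or GFP replicate 2 that count was 2 and without GFP replicate 3 it was 3. Of 9 neuron markers 1 was higher and 0 lower at an unadjusted p under 0.05, Gad2 (1.9-fold, unadjusted p = 0.0306), while 6 of 9 had a fold change above 0 and Rbfox3, Snap25 and Map2 had log2 fold changes of -0.30, -0.06 and -0.09. Of 6 astrocyte markers 0 were higher and 1 lower, Gfap (1.91-fold, unadjusted p = 0.0413). When a library was left out, the count of higher neuron markers was 1 without NeuroD1 replicate 2 or GFP replicate 1 and otherwise 0. The count of lower astrocyte markers was 1 without NeuroD1 replicate 3 and otherwise 0. The part of these cell types in the levels of the oxidase genes was not tested.

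Around the enzyme, the receptors that prime or trigger the burst held more genes higher than any other of 5 pathway lists. Of 54 further pathway symbols in these lists, 40 had enough counts, and 16 were higher and 3 lower at an unadjusted p under 0.05, against 12.5% and 11.5% of all genes, while 0 passed edgeR's adjusted threshold. Without NeuroD1 replicate 1 or GFP replicate 3 the count of lower genes was 1. In the list of 13 triggering receptors 9 of the 11 tested genes were higher and 0 lower, with a median log2 fold change of 1.13. Without NeuroD1 replicate 2 these were 7 genes and 0.75. Tlr4, the endotoxin receptor, was 3.11-fold higher, with 21.8 ± 6.23 CPM with NeuroD1 and 6.96 ± 3.65 CPM with GFP (SD, n = 3 each; unadjusted p = 0.00301, edgeR adjusted p = 0.136). Tnfrsf1b, a receptor for tumour necrosis factor, and Tlr2, a receptor for bacterial lipopeptides, were 2.52-fold and 1.90-fold higher (unadjusted p = 0.00496 and 0.00518, edgeR adjusted p = 0.137 each), each with groups that did not overlap. Fpr1 and Fpr2, receptors for formyl peptides, had too few counts to test.

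Signalling genes upstream of assembly had a median log2 fold change of 0.79, with 4 of 9 higher and 0 lower at an unadjusted p under 0.05. The median was 0.33 without NeuroD1 replicate 2 and 0.48 without GFP replicate 1, with 3 genes higher in each case. Dock2, an exchange factor that loads Rac proteins with GTP in leukocytes, was 2.41-fold higher, with 160.1 ± 58.1 CPM with NeuroD1 and 66.3 ± 13.1 CPM with GFP (SD, n = 3 each; unadjusted p = 0.00275, edgeR adjusted p = 0.136). Pik3cg, a lipid kinase driven by G protein-coupled receptors, and Plcg2, a phospholipase of immune receptor signalling, were 1.87-fold and 2.13-fold higher (unadjusted p = 0.0073 and 0.00771, edgeR adjusted p = 0.139 and 0.14), and the groups overlapped for none of these 3 genes.

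Among relatives of the oxidase 4 of 12 listed symbols could be tested, with 0 higher and 1 lower at an unadjusted p under 0.05. Noxo1, the organiser of the colon-type oxidase, was 2.04-fold lower, with 1.96, 3.68 and 3.41 CPM in NeuroD1 replicates 1, 2 and 3, against 5.27, 6.28 and 6.85 CPM in GFP replicates 1, 2 and 3 (unadjusted p = 0.0175, edgeR adjusted p = 0.152). Rap1a, a small GTPase that copurifies with the membrane core, was 1.37-fold higher with overlapping groups (edgeR adjusted p = 0.336). The chaperone that matures gp91phox and p22phox, listed under its older symbol BC017643, had a log2 fold change of 0.03 (SE 0.23), at 33.9 ± 3.94 CPM with NeuroD1 and 33.3 ± 8.19 CPM with GFP (SD, n = 3 each). Duox2 and Duoxa2 were at 0 counts in every library, and Nox1, Nox3, Noxa1, Duox1 and Duoxa1 had 0 to 5 counts each.

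Of the 4 other phagocyte effectors tested, 3 were higher and 0 lower at an unadjusted p under 0.05, with a median log2 fold change of 1.36. Without NeuroD1 replicate 2 these were 2 genes and 0.89, and without GFP replicate 1, with 5 genes tested, 1 gene and 0.86. Lyz2, a lysozyme gene whose reads can be shared with its close copy Lyz1 and whose level is therefore uncertain, was 3.06-fold higher, with 5032, 7588 and 2425 CPM in NeuroD1 replicates 1, 2 and 3, against 773, 2123 and 2015 CPM in GFP replicates 1, 2 and 3 (unadjusted p = 0.0173, edgeR adjusted p = 0.152). Irg1, the itaconate-producing enzyme of activated macrophages, was 3.70-fold higher (unadjusted p = 0.00599, edgeR adjusted p = 0.138), and Slc11a1, a phagosomal metal transporter, 2.16-fold higher (unadjusted p = 0.0233, edgeR adjusted p = 0.165). Nos2, the inducible nitric oxide synthase, had 0.753, 1.55 and 1.8 CPM in NeuroD1 replicates 1, 2 and 3, against 1.92, 3.07 and 1.85 CPM in GFP replicates 1, 2 and 3. Its level was 1.67-fold lower (unadjusted p = 0.151, edgeR adjusted p = 0.348). The groups were barely apart in CPM, at 1.8 against 1.85. The raw counts, 10, 16 and 20 with NeuroD1 and 19, 23 and 17 with GFP, were low and overlapped. Mpo, myeloperoxidase, which uses hydrogen peroxide made downstream of the oxidase, had 0 to 3 counts with NeuroD1 and 0 to 2 with GFP.

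Enzymes that remove superoxide or peroxide had a median near 0. Of 12 genes 0 were higher and 2 lower at an unadjusted p under 0.05, with a median log2 fold change of 0.06 that was -0.02 with upper quartile scaling, -0.12 without NeuroD1 replicate 2 and -0.06 without GFP replicate 1. Prdx6, a peroxiredoxin abundant in astrocytes, had 460.2, 289 and 563 CPM in NeuroD1 replicates 1, 2 and 3, against 865, 997 and 782 CPM in GFP replicates 1, 2 and 3. It was 2.01-fold lower with no overlap (unadjusted p = 0.0103, edgeR adjusted p = 0.141). Gpx4, which reduces lipid hydroperoxides, was 1.48-fold lower (unadjusted p = 0.0451, edgeR adjusted p = 0.20). The superoxide dismutases Sod1, Sod2 and Sod3 had log2 fold changes of -0.20, 0.39 and -0.30 with groups that overlapped.

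**Figure D4:**
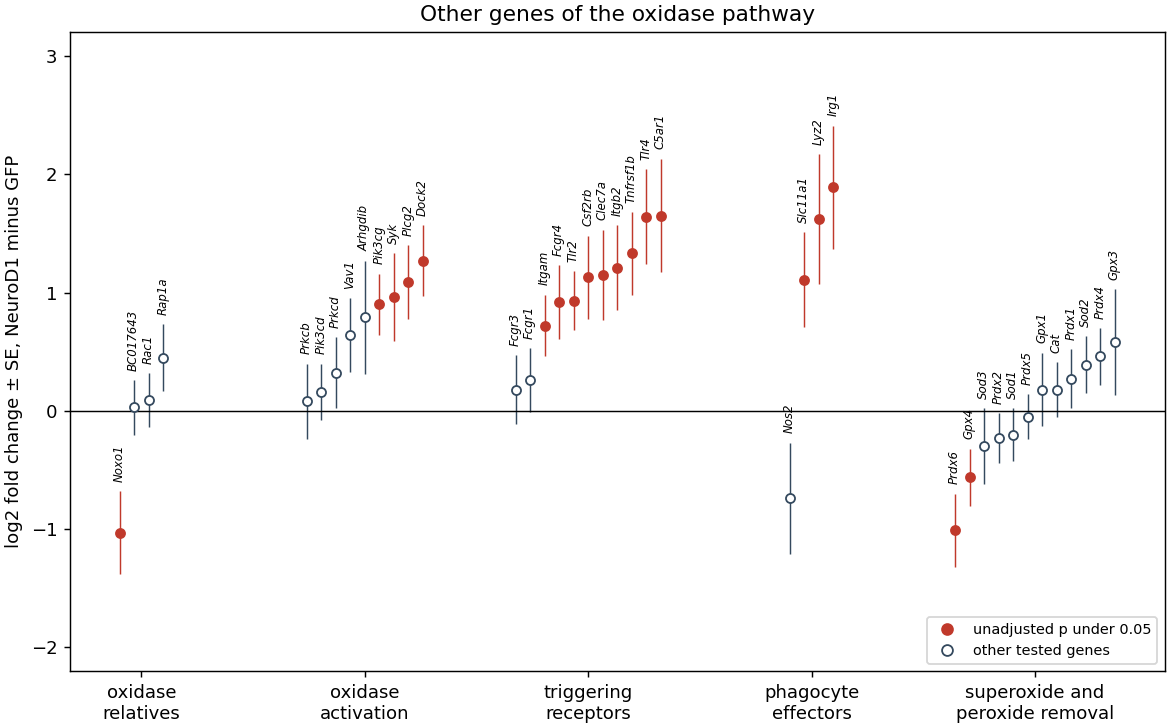
Log2 fold change (edgeR, NeuroD1 minus GFP, bars 1 SE) of each tested gene in the 5 further pathway lists, filled where the unadjusted p is under 0.05. Triggering receptors lie above 0 with 9 of 11 filled, while of 12 enzymes that remove superoxide or peroxide 2 are filled, both below 0.

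The genes whose profile over the 6 libraries lay closest to that of Cybb, by the root mean square difference of centred log2 CPM among 14731 genes, were Itgal, Dscc1, Ccnb1, Hpse and Mbnl3, at 0.153 to 0.193 log2 units. Itgal, the leukocyte integrin alpha L, had 31.5, 38.4 and 19.4 CPM in NeuroD1 replicates 1, 2 and 3, against 5.27, 11.1 and 10.3 CPM in GFP replicates 1, 2 and 3. The other oxidase genes were farther from Cybb, at 0.685 (Rac2) to 0.801 (Hvcn1), with Rac2 at rank 897. For Nox4 the closest were Ttk, Col26a1, Vgll3, Cxcl13 and Ctsk, at 0.184 to 0.261, and the nearest oxidase gene was Rac2 at 0.553. These distances describe 6 libraries that share 1 contrast.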

How the data were processed

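The deposited file holds raw read counts per gene symbol, which the authors obtained with featureCounts from a gene annotation for mm10, as its header records. The submitters' processing notes also list HISAT2 2.0.1, DESeq2 1.16.1 and GRCm38, with no role for any of them. The sources used here do not give the strand setting, annotation release or read filters. Columns were matched to samples by the labels' descriptions, and 4989 genes had 0 counts throughout.

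Counts were tested with edgeR 4.0.16 (quasi-likelihood F-test, TMM, treatment as the only term) in R 4.3.3, after filterByExpr (minimum count 10, minimum total 15), which kept 14852 genes. P-values were adjusted by Benjamini-Hochberg over all of them, threshold 0.05. Standard errors were derived from the F statistic. Within-library log2 ratios used a prior count of 0.5 and exact permutation tests (scipy 1.17.1). Exon lengths, GC content and coordinates came from GENCODE M21 (GRCm38), and 96.5% of tested genes had a length for the offsets, which were natural splines with 4 degrees of freedom. Alternatives were DESeq2 1.42.0, limma-voom 3.58.1, other scalings and filters, a replicate block, and leaving out each library. The tests were tested on simulated data.

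The members and the 16 gene lists were chosen with earlier results of these data known. Named genes were the members, the 3 genes of each list with the smallest p and list genes that could not be tested, and the 5 nearest profiles of Cybb and Nox4. Some list genes are not reported here, and a list may hold genes that are not named. Other list genes named were chosen after their values were seen. Libraries of 1 group differed from each other by 35.4 to 133 chi-square units per gene, far above sampling noise, so none was treated as a duplicate.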

Additional observations from a re-analysis of the deposited data

How the results depend on the processing

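Cybb passed the adjusted threshold with DESeq2 (log2 fold change 1.99) and with the replicate block (1.94, edgeR adjusted p = 0.0455), and not in the other fits. The replicate numbers share no stated origin, so the block was not read as pairing. Deviations of same-numbered libraries correlated at 0.51, 0.36 and 0.046, and those of differently numbered libraries across the groups at -0.44 to 0.12. Whether the numbers mark a shared origin was not tested. With the block 479 genes passed in all and 1 member, and 2 members were higher at an unadjusted p under 0.05, as were 2651 of all genes (17.8%). With the block together with length and GC offsets these were 242 genes, 0 members, 6 members and 2223 of 14852 genes. DESeq2 called 1366 genes and 1 member, and the offsets alone left 4 members and 1677 genes (11.3%) higher at an unadjusted p under 0.05. The cause of these shifts was not tested.

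Leaving out each library in turn gave log2 fold changes of 1.63 to 2.25 for Cybb, -0.06 to 0.73 for Cyba, 0.25 to 0.76 for Ncf1, 0.10 to 0.81 for Ncf4, 0.18 to 0.90 for Rac2, 0.30 to 0.68 for Hvcn1 and 0.33 to 1.5 for Nox4. It gave 0 to 1 genes past the adjusted threshold, 925 to 2316 genes and 1 to 4 members higher at an unadjusted p under 0.05, 1 to 5 members above every GFP library, and 11 to 19 higher and 1 to 4 lower pathway genes. The share of all genes above every GFP library was not counted with a library left out. Differences relative to pan-phagocyte markers were 1.49 to 1.69 for Cybb, -0.12 to 0.16 for Cyba, -0.01 to 0.24 for Ncf4 and -0.01 to 0.27 for Hvcn1. With monocyte and macrophage markers, an alternative added after the data were seen, they were negative for Cyba (-1.23), Ncf1 (-1.11), Ncf4 (-1.17), Rac2 (-1.06), Hvcn1 (-1.19) and Nox4 (-0.78), and 0.29 for Cybb.

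List medians near 0 changed sign. The oxidase relatives were at -0.87 with DESeq2 and -0.81 with no filter, where 9 genes were tested against 4 in the main fit. The added genes, Nox1, Nox3, Noxa1, Duox1 and Duoxa1, had 0 to 5 counts a library, so these 2 medians cover another set of genes. With 4 genes tested the median was -0.03 with upper quartile scaling. It was -0.06 to 0.15 with each library left out, the lowest without NeuroD1 replicate 2 and without GFP replicate 1. Superoxide and peroxide removal was at -0.02 with upper quartile scaling, -0.06 without GFP replicate 1 and -0.12 (without NeuroD1 replicate 2) to 0.11 over the libraries left out, and neurons at -0.04 with the block and offsets. Depth limits Nox4, at 5 to 41 counts a library.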
